A study of Mus musculus with 5 samples.

Results

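The immediate early transcription factors are genes whose transcription rises within minutes of a stimulus and needs no new protein synthesis. The members described here were 10 genes of 4 families, chosen by name and mapped to gene identifiers through the annotation, out of 35275 genes in the table. They were the FOS genes Fos and Fosb, the JUN genes Jun, Junb and Jund, the EGR genes Egr1, Egr2 and Egr3, and the NR4A genes Nr4a1 and Nr4a3. The 10 genes were all found, and each had a mean of at least 1 FPKM (reads scaled to gene length and to the library total), the level from which genes entered the tests. Their levels were measured by RNA sequencing in 5 gastrocnemius samples of 1 group, called libraries 1 to 5 after the numbers in their titles.

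The animals were female NOD scid gamma (NSG) mice, a strain without mature lymphocytes that keeps neutrophils and macrophages, and the labels give their genotype as wild type and their age as 12 weeks. They had received 10 tail-vein injections of MCF-10A/miR122 EVs, which are extracellular vesicles from a line derived from MCF-10A, a non-tumorigenic human mammary epithelial line. Injections of about 10 µg were given 2 times per week for 5 weeks, and the muscle was taken 2 days after the last one. No group without vesicles was analysed here, so the data hold no measure of what the vesicles did, and the comparisons below are between libraries and between genes. Whether each sample came from its own animal is not stated in the labels, and the spread given is that between these samples.

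FOS proteins cannot pair with themselves and bind DNA as heterodimers with JUN proteins, the AP-1 factor, while JUN proteins can also pair with one another. EGR proteins are zinc finger factors that bind GC-rich sites, and NR4A proteins are orphan nuclear receptors that act without a known natural ligand. In skeletal muscle, contraction, stretch, injury and adrenergic stimulation are known inducers of these genes, and their mRNAs are short-lived. Their promoters are known to respond through serum response factor at CArG boxes and through CREB at cyclic AMP response elements, of which TGACG is the half-site.

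RefSeq promoter entries, covering 250 bases before and 50 after the start on GRCm38.p6, were found for 8 of the 10 members and not for Egr1 and Egr3. The entry of Jund starts 1210 bases from its principal annotated start and its window lies outside the gene coordinates given below, that of Nr4a3 starts 152 bases away, and for Egr2 the entry nearest that start was taken of 5. The 5 below are shown because they belong to the members with the largest spread for which an entry was found, and to both NR4A genes. They run 5′ to 3′ along the gene. Capitals mark TGACG on either strand (CGTCA on the printed one), the CArG box and, in the printed direction, TATAAA.
Fos, chr12:85473640-85473939, plus strand: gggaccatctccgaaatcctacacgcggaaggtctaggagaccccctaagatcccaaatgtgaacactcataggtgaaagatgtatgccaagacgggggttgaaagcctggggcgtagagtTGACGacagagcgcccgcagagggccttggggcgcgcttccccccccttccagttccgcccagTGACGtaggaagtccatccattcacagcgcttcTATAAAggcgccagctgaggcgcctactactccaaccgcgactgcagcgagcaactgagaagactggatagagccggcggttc
Fosb, chr7:19309996-19310295, minus strand: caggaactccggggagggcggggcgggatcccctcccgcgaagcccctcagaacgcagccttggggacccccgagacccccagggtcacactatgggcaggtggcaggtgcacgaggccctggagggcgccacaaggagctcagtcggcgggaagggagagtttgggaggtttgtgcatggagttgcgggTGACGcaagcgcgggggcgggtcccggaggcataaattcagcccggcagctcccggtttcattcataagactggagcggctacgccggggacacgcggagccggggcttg
Egr2, chr10:67537619-67537918, plus strand: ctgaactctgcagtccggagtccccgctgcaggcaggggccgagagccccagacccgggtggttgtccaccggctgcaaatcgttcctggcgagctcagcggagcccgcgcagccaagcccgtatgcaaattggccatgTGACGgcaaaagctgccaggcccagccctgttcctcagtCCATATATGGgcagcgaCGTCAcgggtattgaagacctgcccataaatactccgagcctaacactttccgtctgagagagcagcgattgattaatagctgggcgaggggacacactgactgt
Nr4a1, chr15:101266596-101266895, plus strand: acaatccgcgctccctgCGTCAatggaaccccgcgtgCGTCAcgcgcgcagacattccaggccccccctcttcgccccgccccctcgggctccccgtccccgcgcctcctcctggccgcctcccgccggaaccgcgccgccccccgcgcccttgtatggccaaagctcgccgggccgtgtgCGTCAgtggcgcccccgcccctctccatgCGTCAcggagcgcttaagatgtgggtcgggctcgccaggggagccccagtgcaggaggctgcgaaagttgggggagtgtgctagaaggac
Nr4a3, chr4:48045055-48045354, plus strand: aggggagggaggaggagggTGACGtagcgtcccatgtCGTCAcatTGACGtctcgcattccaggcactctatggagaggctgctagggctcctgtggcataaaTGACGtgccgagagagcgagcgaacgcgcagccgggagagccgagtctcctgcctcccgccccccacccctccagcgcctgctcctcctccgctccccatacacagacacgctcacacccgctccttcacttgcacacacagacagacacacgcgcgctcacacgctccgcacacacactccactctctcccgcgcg
The half-site TGACG, searched on both strands, was in 6 of the 8 promoters, against 21.0% of 27025 promoters of the same length, for which the first entry of each gene was taken. The Jun and Jund windows held none of the motifs searched. At least 2 copies of TGACG were in 4 of the 8, against 5.20% of all promoters, with 4 copies each in Nr4a1 and Nr4a3. The 6 windows with TGACG were 58.7% to 72.3% G and C, against a median of 52.7% over all promoters. The shares were not matched for this content, so they do not set these genes apart from other GC-rich promoters. The full element TGACGTCA, which contains the half-site on both strands, was in 0 of the 8 and in 1.88% of all. A CArG box was in the Egr2 window and in 1.57% of all, and TATAAA was in the Fos and Junb windows and in 8.88% of all. The EGR site GCGTGGGCG, the AP-1 site TGANTCA and the NR4A site AAAGGTCA were in none of the 8 windows, against 0.625%, 7.93% and 1.46% of all promoters. These matches describe letters in a short window and were not tied to the levels below.

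The library totals recovered from the values ran from 16674504 reads in library 3 to 25407988 in library 5. Muscle fibre markers such as Acta1, skeletal alpha-actin, summed to 62740 to 80939 FPKM over 8 genes, so the tissue label and its markers match. Library 3 stood apart in markers of other cells. All 12 macrophage markers were highest there, summing to 420 FPKM against 104 to 137 in the other 4, and 6 of 6 adipocyte and 4 of 4 tested erythroid markers were highest there too. Of the 10710 genes tested, 37.4% were highest in library 3 and 23.2% in library 2. In whole tissue, fewer cells that express a gene and less RNA of it per cell cannot be told apart.

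Fos, Fosb, Egr1, Egr2 and Egr3 had high levels in libraries 2 and 3 and low levels in the other 3. Jun, Junb and Jund were lowest in library 1 and differed less. Nr4a1 was the most abundant member and was also lowest in library 1, and Nr4a3 was highest in library 5.

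**Figure D1:**
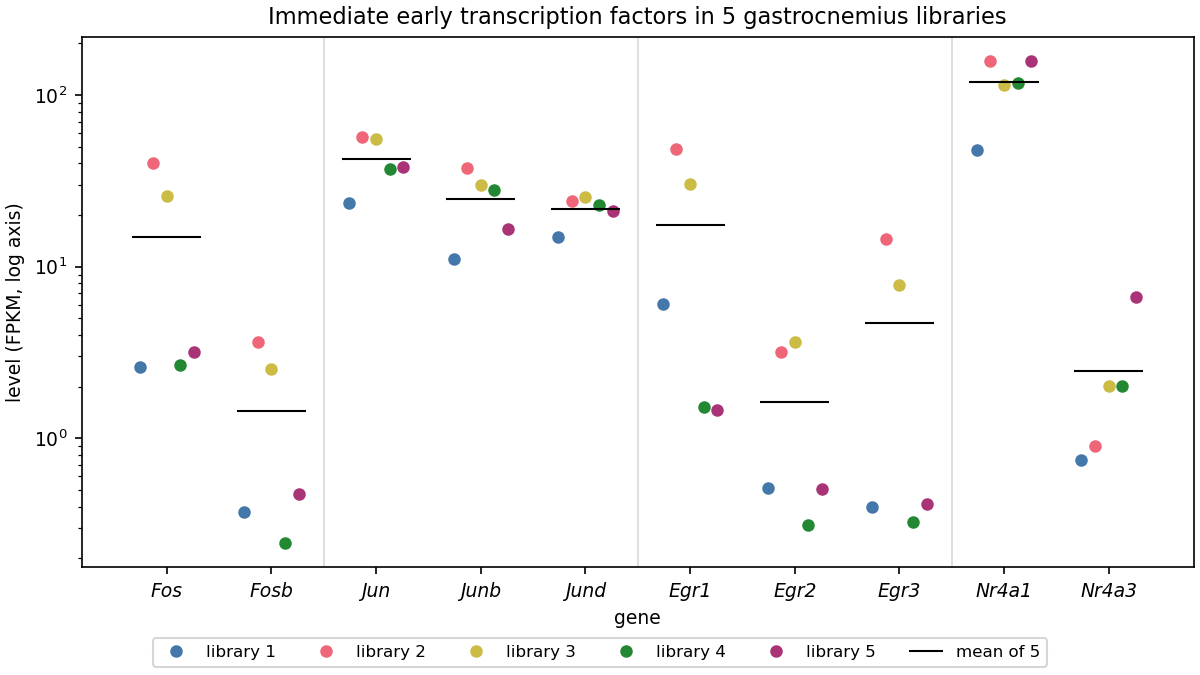
Levels of the 10 members in FPKM, on a log axis, in libraries 1 to 5 (points, one colour per library), with the mean of the 5 as a line. The points of libraries 2 and 3 stand above the other 3 for Fos, Fosb, Egr1, Egr2 and Egr3, and Nr4a3 is highest in library 5, at 6.66 FPKM.

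Fos (ENSMUSG00000021250, chr12:85473890-85477273 on GRCm38) encodes the founding member of the FOS family and is often used as a marker of recent stimulation. Its levels were 2.61, 40.4, 25.7, 2.67 and 3.17 FPKM in libraries 1 to 5. The values of libraries 1, 4 and 5 thus lay close together, and library 2, the highest, was 15.5 times the lowest, library 1. The 95% exact Poisson interval from reads was 2.17 to 3.10 FPKM in library 1 and 38.5 to 42.5 FPKM in library 2, which covers counting error only. The mean was 14.9 ± 17.4 FPKM (SD, n = 5), and 8.55 FPKM without library 2.

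Fosb (ENSMUSG00000003545, chr7:19302696-19310051), whose splice form delta-FosB is known for its stability, was far less abundant. Its levels were 0.372, 3.62, 2.54, 0.246 and 0.472 FPKM in libraries 1 to 5. The highest pair was again libraries 2 and 3, and the lowest was library 4, with 22 reads and an interval of 0.154 to 0.373 FPKM. The mean was 1.45 ± 1.54 FPKM (SD, n = 5), and 0.908 FPKM without library 2, which falls below the level needed for the tests. Within a library Fos exceeded Fosb by 6.72 to 11.2 times, a ratio with a much smaller range than either gene.

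Jun (ENSMUSG00000052684, chr4:95049034-95052222) encodes c-Jun, the common partner of FOS proteins. Its levels were 23.7, 56.8, 55.6, 37.1 and 38.3 FPKM in libraries 1 to 5. The values of libraries 2 and 3 were nearly equal, as were those of libraries 4 and 5 below them, and library 1 was lowest. The mean was 42.3 ± 13.9 FPKM (SD, n = 5). On the log2(FPKM + 1) scale the SD was 0.50, and 0.33 without library 1.

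Junb (ENSMUSG00000052837, chr8:84974484-84978718) encodes a JUN protein known for maintaining muscle mass in mice. Its levels were 11.0, 37.8, 30.0, 27.8 and 16.5 FPKM in libraries 1 to 5, with a mean of 24.6 ± 10.8 FPKM (SD, n = 5). Unlike Fos, it was nearly as high in library 4 as in library 3, and after scaling by median of ratios the second highest was library 4.

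Jund (ENSMUSG00000071076, chr8:70698949-70700616) encodes the JUN protein known for broad, steady expression. Its levels were 14.9, 24.2, 25.4, 22.8 and 21.0 FPKM in libraries 1 to 5, with a mean of 21.7 ± 4.12 FPKM (SD, n = 5). Libraries 2 to 5 lay close together and only library 1 was low. The SD on the log2(FPKM + 1) scale was 0.29, the smallest of the 10 members, and 0.11 without library 1. After scaling by median of ratios Jund was highest in library 4, not library 3.

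The JUN genes share exon bases with genes on the opposite strand, and no source used here gives the strand setting of the authors' counting. Jun shares 232 bases with its antisense gene Junos, which had 7.77 to 13.2 FPKM. Junb shares 173 bases with Prdx2, a peroxiredoxin gene, which had 66.7 to 94.8 FPKM and was highest in library 2. Jund shares 877 bases with Gm11175, which was listed at 0 in the 5 libraries. Reads in the shared bases of Jun and Junb cannot be assigned to a strand from these values.

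Egr1 (ENSMUSG00000038418, on chromosome 18) encodes the best known EGR protein, an early factor in many cell types. Its levels were 6.08, 48.5, 30.1, 1.53 and 1.47 FPKM in libraries 1 to 5. High levels in libraries 2 and 3 stood above an intermediate one in library 1, and libraries 4 and 5 were nearly equal and lowest. Library 2 was 33.1 times library 5. The intervals of libraries 1 and 4 did not overlap, at 5.61 to 6.58 FPKM and 1.30 to 1.78 FPKM. The mean was 17.5 ± 21.0 FPKM (SD, n = 5), and 9.80 FPKM without library 2.

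Egr2 (ENSMUSG00000037868, chr10:67535475-67542188) is known as a regulator of myelination in Schwann cells. Its levels were 0.515, 3.20, 3.64, 0.311 and 0.504 FPKM in libraries 1 to 5, with a mean of 1.63 ± 1.64 FPKM (SD, n = 5). It was the only EGR member highest in library 3, but the intervals of libraries 2 and 3 overlapped, at 2.75 to 3.71 FPKM and 3.13 to 4.21 FPKM. Of 7 Schwann cell markers, 5 had libraries 2 and 3 as their highest pair, against 25.2% of genes tested. Their part in the Egr2 level was not tested.

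Egr3 (ENSMUSG00000033730, chr14:70077203-70082614) is known in mice for its need in muscle spindle development. Its levels were 0.401, 14.6, 7.79, 0.326 and 0.417 FPKM in libraries 1 to 5. Libraries 1, 4 and 5 were low and close together, and library 2 was 44.6 times library 4, the widest range of the 10 members. The mean was 4.70 ± 6.38 FPKM (SD, n = 5), and 2.23 FPKM without library 2. The low values rest on 11 to 15 reads at the gene length found, with an interval of 0.163 to 0.583 FPKM in library 4. A length 3 times as long, which is nearer the annotated exon length, would give 33 reads in library 4 and leave the FPKM as they are.

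Nr4a1 (ENSMUSG00000023034, chr15:101254269-101274795), also called Nur77, is known in rodent muscle for its induction by adrenergic stimulation and exercise and for control of glucose-use genes. Its levels were 47.9, 157, 114, 117 and 158 FPKM in libraries 1 to 5, with a mean of 119 ± 44.9 FPKM (SD, n = 5). Libraries 2 and 5 were nearly equal at the top, although Fos was 40.4 FPKM in library 2 and 3.17 FPKM in library 5. Library 1 was far below the rest, and without it the SD on the log2(FPKM + 1) scale was 0.26 instead of 0.70.

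Nr4a3 (ENSMUSG00000028341, chr4:48045153-48086447), also called NOR-1, is known for its response to exercise in muscle. Its levels were 0.747, 0.906, 2.01, 2.02 and 6.66 FPKM in libraries 1 to 5. Library 5 was 3.30 times the next highest, and library 2, which was highest for 6 members, was the second lowest. The mean was 2.47 ± 2.42 FPKM (SD, n = 5), and 1.42 FPKM without library 5. The ratio of Nr4a1 to Nr4a3 was 173 in library 2 and 23.8 in library 5, against 56.6 to 64.1 in the other 3.

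By mean level per length the order was Nr4a1, Jun, Junb, Jund, Egr1, Fos, Egr3, Nr4a3, Egr2 and Fosb. The ranges of all 9 neighbouring pairs in that order overlapped. Nr4a1 exceeded Jun, Jun exceeded Junb and Fos exceeded Egr3 in 5 of 5 libraries, while the other 6 neighbouring pairs changed order in at least 1 library. Of all 45 pairs of members, 31 kept 1 order in the 5 libraries. With 5 libraries, an exact permutation test that flips the signs of the differences in 32 ways (two-sided) cannot give a p below 0.0625, so no pair could pass 0.05. The smallest p of this test after Benjamini-Hochberg adjustment over the 45 pairs was 0.0907. Nr4a1 alone made up 38.4% to 64.1% of the summed FPKM of the 10 members.

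The make-up of the AP-1 genes differed between libraries. The summed level of the 5 FOS and JUN members was 52.6, 163, 139, 90.6 and 79.5 FPKM in libraries 1 to 5. Fos and Fosb together made up 5.67%, 27.0%, 20.3%, 3.22% and 4.58% of these sums, so the FOS share was highest in the libraries with the 2 highest sums. The ratio of Fos to Jun was 0.110, 0.712, 0.463, 0.0719 and 0.0828. The ratios among the JUN genes varied less: Junb over Jun ran from 0.431 to 0.75 and Jund over Jun from 0.426 to 0.628. Among the EGR genes, Egr1 over Egr3 was 3.33 to 4.68 in libraries 2 to 5 and 15.2 in library 1, where Egr3 had only 13 reads at the gene length found.

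**Figure D2:**
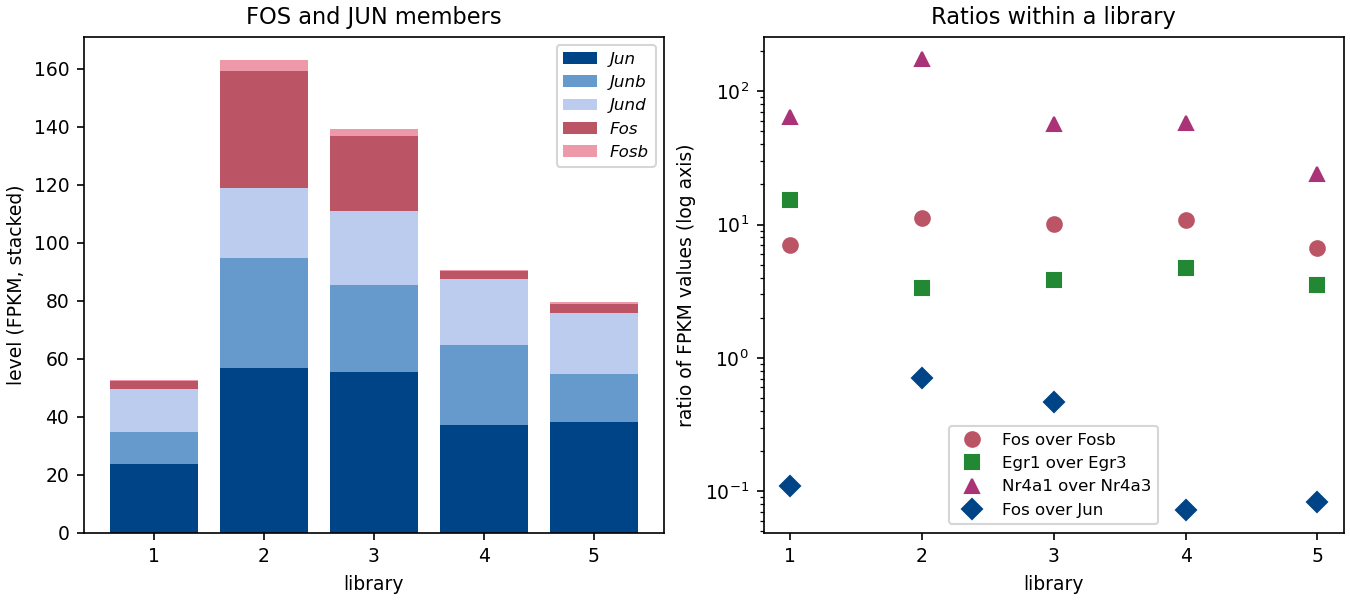
Left, levels of the FOS and JUN members stacked in FPKM for each library. Right, ratios of FPKM values within each library on a log axis; Fos over Fosb stays between 6.72 and 11.2, while Fos over Jun runs from 0.0719 to 0.712.

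The question of how far the members stood out from other genes was asked of the spread between libraries. The SD of log2(FPKM + 1) had a median of 0.86 over the 10 members and of 0.19 over the 10710 genes tested. Egr1 had the largest SD, 2.01, followed among members by Fos with 1.73 and Egr3 with 1.71. At least a 5-fold range between libraries was seen in 6 of 10 members, against 2.14% of genes tested. Each of the 10 members varied beyond counting error (chi-square on recovered reads, adjusted p under 0.05), but so did 87.9% of genes tested, so that count says little about the members.

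Relative to the limma trend of spread with level, Egr1 ranked 1 of 10710 genes, Fos 3 and Egr3 8, and Jund ranked 2012. The ranks depended on the setting. Without library 2, Egr1 ranked 7, Fos 17 and Egr3 41 of 10620 genes, and with no filter they ranked 2, 4 and 33 of 20840. None of the 10 members passed the limma test at an adjusted p of 0.05, and 0% of genes tested did. Their adjusted p-values ran from 0.640 to 0.990. At an unadjusted p under 0.05, 9 of 10 members and 616 genes in all (5.75%) passed, Jund being the exception. These calls were not stable: 6 of 10 members passed without library 1, where Jun, Junb and Nr4a1 no longer did, and 8 passed without library 5, where Nr4a3 no longer did. Jun also failed with median-of-ratios scaling, at an unadjusted limma p of 0.0568, and with a robust prior, at 0.0580. Egr1, with a variance 118 times the trend, had an unadjusted p of 0.000237 by limma and an adjusted p of 0.640. With 4 and 3.93 degrees of freedom the test has little power over 10710 genes. The lack of calls thus does not show that the spread of the members is ordinary. Without library 3, where macrophage markers were highest, 4 genes passed, among them Egr1 with an adjusted p of 0.0353, and the count was 0 without any of the other 4 libraries.

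**Figure D3:**
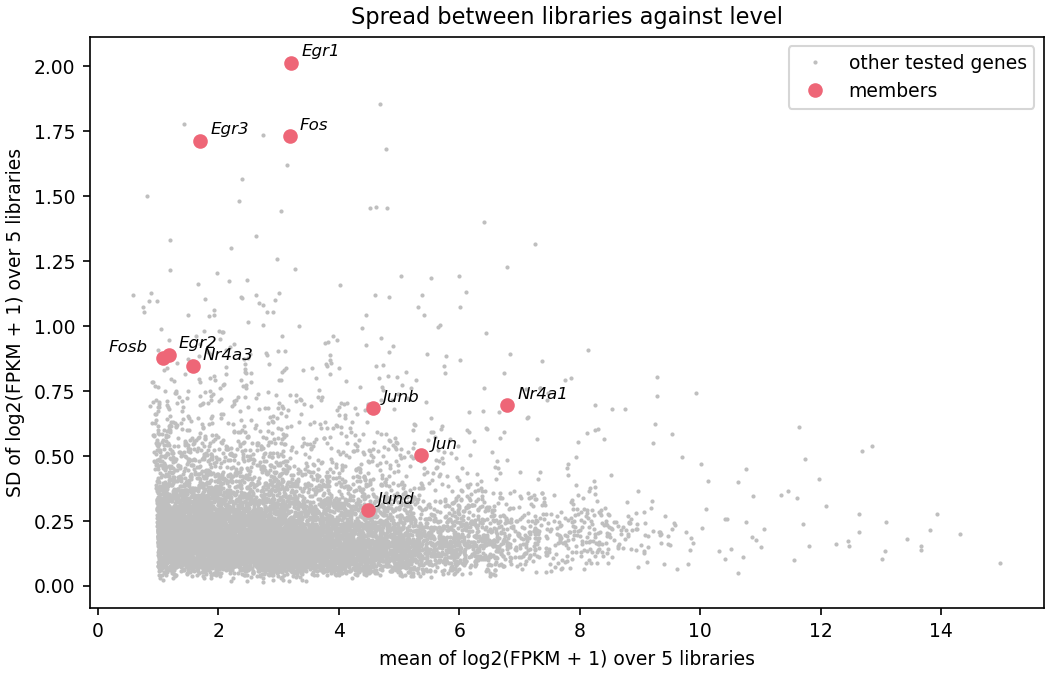
SD against mean of log2(FPKM + 1) over the 5 libraries for the genes tested (grey) and the 10 members (red). Egr1, Fos and Egr3 lie near the top of the cloud, at SDs of 2.01, 1.73 and 1.71, and Jund, at 0.29, lies within it.

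By library, 6 of 10 members were highest in library 2 (Fos, Fosb, Jun, Junb, Egr1 and Egr3), against 23.2% of genes tested. For Jun the 95% intervals of libraries 2 and 3 overlapped, at 54.9 to 58.8 FPKM and 53.6 to 57.6 FPKM. The highest pair was libraries 2 and 3 for 8 of 10 members, all but the NR4A genes, against 25.2% of genes tested. Scaling by median of ratios moves the median gene of library 4 by 0.12 on the log2 scale. After it, this held for 6 of 10 members and 14.5% of genes, Junb and Jund leaving the count. At a mean of at least 10 FPKM, unscaled, it held for 5 of 6 members and 21.9% of genes. This pair was chosen with results of these data known, so the shares beside it are no test. Fosb, Egr2 and Egr3 were below 1 FPKM in libraries 1, 4 and 5. They reached the tested mean only through libraries 2 and 3. Library 1 was the lowest for 6 of 10 members (Fos, Jun, Junb, Jund, Nr4a1 and Nr4a3), against 10.2% of genes tested, and for the same number against 16.5% after scaling. For Fos the 95% intervals of libraries 1 and 4 overlapped, at 2.17 to 3.10 FPKM and 2.24 to 3.16 FPKM. Those of Nr4a3 in libraries 1 and 2 also did, at 0.607 to 0.911 FPKM and 0.734 to 1.11 FPKM. The lowest place of library 1 is therefore within counting error for Fos and Nr4a3. Libraries 2 and 3 also had the fewest reads, and the part of depth in these counts was not tested.

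Likeness between members was measured as the root-mean-square difference between their deviations from their own means on the log2(FPKM + 1) scale, with 5 points each and with the libraries shared. Fos and Egr3 were the closest pair on this scale, with a difference of 0.09, but with a pseudocount of 0.1 the difference was 0.51 and Fos was closest to Fosb, at 0.38. The ratio of Fos to Egr3 in FPKM was 6.51, 2.78, 3.30, 8.18 and 7.61 in libraries 1 to 5, a 2.95-fold range, against the 1.66-fold range of Fos over Fosb. Fosb was closest to Egr2, at 0.17, and Jun to Jund, at 0.22, and with a pseudocount of 0.1 these differences were 0.24 and 0.23. Nr4a3 was least like any other member, with its nearest, Nr4a1, at 0.67. The pseudocount of 1 compresses genes of low level such as Egr3.

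**Figure D4:**
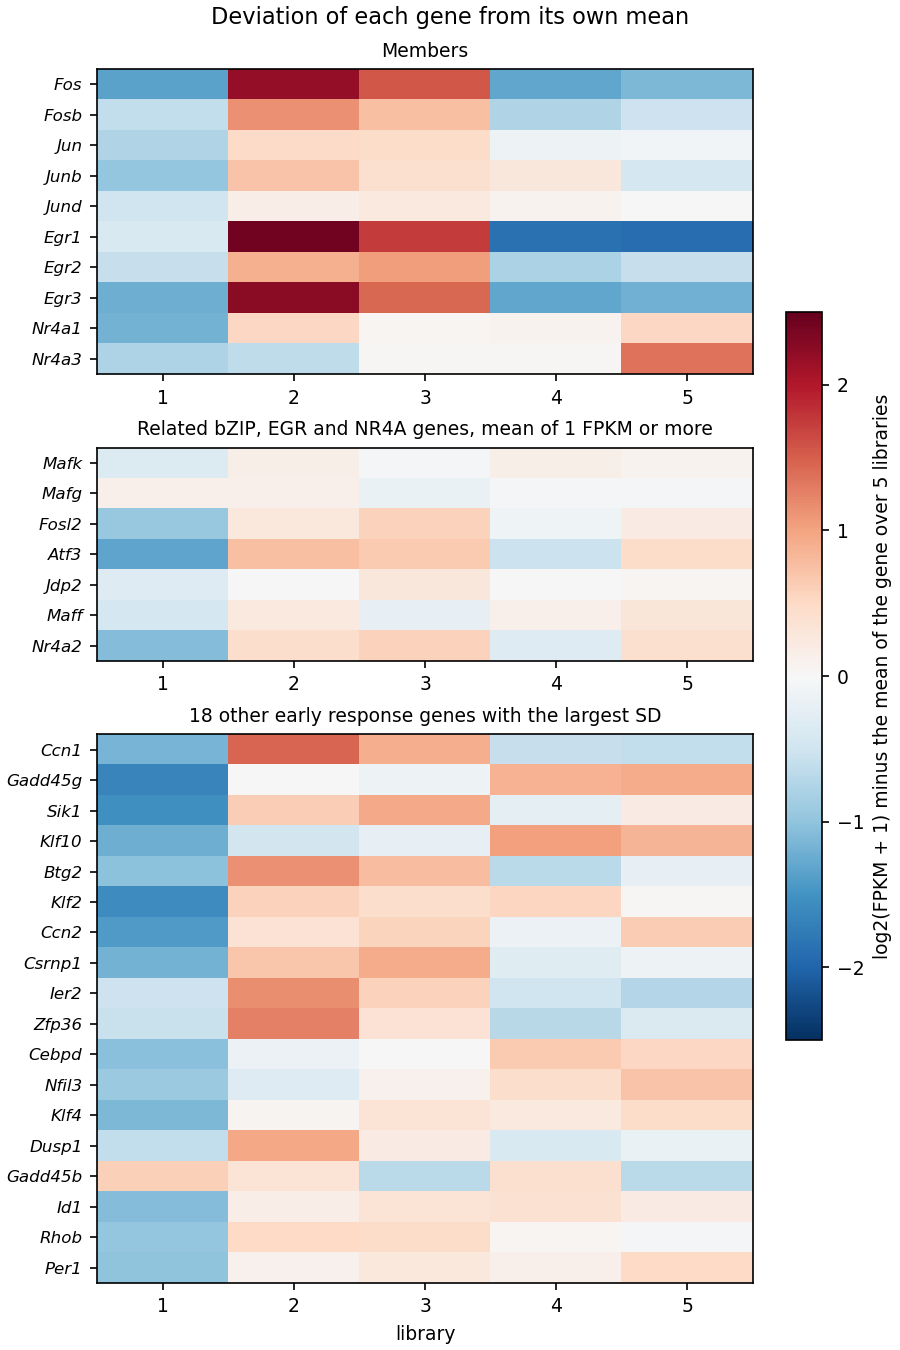
Deviation of log2(FPKM + 1) from the mean of each gene over 5 libraries (red above, blue below) for the members, for related family genes and for the other early response genes with the largest SD. Libraries 2 and 3 are red for Fos, Fosb, Jun, Junb, Jund, Egr1, Egr2 and Egr3, and library 5 is darkest red for Nr4a3.

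Of 12 related family genes, 7 reached a mean of 1 FPKM, and 6 of these 7 were lowest in library 1, against 10.2% of genes tested. Atf3, a stress-induced partner of JUN proteins, had 1.78, 10.7, 9.85, 3.77 and 8.53 FPKM in libraries 1 to 5. It shared high levels in libraries 2 and 3 with Fos, but unlike Fos was nearly as high in library 5. Nr4a2, the remaining NR4A gene, had 0.660, 3.81, 4.30, 1.82 and 3.64 FPKM, lowest in library 1 like Nr4a1 and Nr4a3 but highest in library 3. Fosl2, the FOS relative Fra-2, had 3.53, 9.46, 12.1, 7.14 and 9.07 FPKM and was highest in library 3. The small MAF genes Mafk and Mafg, which lack an activation domain, ranged only from 10.5 to 15.2 and from 11.1 to 14.0 FPKM, and Maff from 2.46 to 4.78 FPKM. Jdp2, a repressor that pairs with JUN, ranged from 3.96 to 6.54 FPKM. Fosl1, Batf, Batf2, Batf3 and Egr4 were below the level tested, with Egr4 at 0.0184 to 0.151 FPKM.

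A wider list of 44 other early response genes had 42 tested. Of these, 24 had an unadjusted p under 0.05 for spread by limma, against 5.75% of genes tested, and 0 passed at an adjusted p of 0.05. Library 1 was the lowest for 25 of the 42, against 10.2% of genes tested. Libraries 2 and 3 were the highest pair for 20 of the 42, against 25.2% of genes tested, and one of them was the highest for 27 of the 42, against 60.6% of all genes tested, a share near the background. Ccn1, a secreted matrix protein gene, had 11.6, 76.5, 51.9, 18.1 and 17.7 FPKM in libraries 1 to 5, much like Fos. Dusp1, a phosphatase that switches off MAP kinases, had 33.2, 101, 59.1, 39.2 and 46.0 FPKM, with library 2 alone clearly high. Sik1, a kinase gene induced by cyclic AMP, had 4.2, 22.0, 27.8, 11.6 and 16.2 FPKM, with only library 1 far below the rest. Tob1 and Mcl1 were abundant and steadier, at 93.8 to 134 and 55.0 to 80.8 FPKM, and Sgk1, a glucocorticoid-induced kinase gene, ran from 33.2 FPKM in library 1 to 72.8 FPKM in library 5.

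The kinases and transcription factors that act on early promoters varied far less than the members, and about as much as genes tested in general. Of 39 listed, 38 were tested, with a median SD of 0.15 on the log2(FPKM + 1) scale, against 0.19 over all genes tested. An unadjusted p under 0.05 by limma was found for 0 of the 38, against 5.75% of genes tested, a share near the background. Srf, the serum response factor, had 30.4, 31.3, 35.1, 29.8 and 34.2 FPKM in libraries 1 to 5, and Creb1 ran from 1.41 to 2.08 FPKM. These are mRNA levels, and the activity of such proteins is set largely by phosphorylation, which was not measured. Among 8 co-repressors and turnover factors the median SD was 0.17, also near the 0.19 of all genes tested. Nab2, a co-repressor of EGR proteins that EGR proteins are known to induce, had 1.93, 2.36, 4.88, 2.41 and 2.12 FPKM, and was high in library 3 but not in library 2, where Egr1 was highest. Of 6 glucose-use genes known as NR4A1-regulated in rodent muscle, Prkag3 was highest in library 1, where Nr4a1 was lowest, at 95.5 FPKM against 28.8 to 52.9 FPKM. In library 2, where Nr4a1 had 157 FPKM, 5 of the 6 were lowest, against 9.80% of genes tested. In library 5, where Nr4a1 had 158 FPKM, 0 of the 6 were lowest, against 24.9% of genes tested. The part of Nr4a1 in these levels was not tested. Phka1, a phosphorylase kinase subunit gene, was also highest in library 1, Fbp2 and Pygm were highest in library 4 and Pgam2 in library 5. Slc2a4, the GLUT4 gene, ranged only from 184 to 215 FPKM and was highest in library 2.

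On the log2(FPKM + 1) scale, the 15 genes whose deviations were nearest the mean deviation of the 10 members included the early response genes Btg2, Ier2 and Zfp36 and the feedback inhibitor gene Errfi1. The nearest was Hspb7, a small heat shock protein gene, with 123, 405, 375, 147 and 170 FPKM in libraries 1 to 5 and a difference of 0.06. Several were abundant muscle genes, namely Myh1, the fast myosin of type 2X fibres, Fhl1, Actn2, Cryab, Myom3 and Myl6b. Myh1 had 702, 1954, 1471, 628 and 701 FPKM, high in libraries 2 and 3 only. The others were Tceal7, Lmcd1, Clec3a and Hectd2os. With a pseudocount of 0.1, 8 of the 15 were again among the nearest, Hspb7, Btg2, Ier2, Zfp36 and Myh1 among them. Myh4, the myosin of type 2B fibres, had 8303, 3712, 5756, 8116 and 8657 FPKM and was lowest in libraries 2 and 3. Other fibre markers did not share this order. Actn3 was lowest in library 2, at 1910 FPKM, but had 3641 FPKM in library 3, close to 3670 FPKM in library 1. Mb, the myoglobin gene, was highest in library 2, at 6561 FPKM, and lowest in library 3, at 2212 FPKM. Which fibres or region of the muscle each sample held is not given in the labels, and its part in the member levels was not tested.

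Markers of other cell types moved with the members only in part. Of the 12 macrophage markers, all had libraries 2 and 3 as their highest pair, against 25.2% of genes tested. Their sum, however, was 137 FPKM in library 2, where Fos and Egr1 were highest, and 420 FPKM in library 3. Endothelial markers were highest in library 2 for 5 of 9 genes, against 23.2% of genes tested, with sums of 108 to 141 FPKM. Mural markers were highest in library 3 for 5 of 7 and fibroblast markers for 7 of 9, against 37.4% of genes tested. The 8 muscle stem cell markers summed to 30.2 to 40.2 FPKM, highest in library 2. Of the 5 tested, 3 were highest in library 2 and 2 in library 3. None of them, 0 of 5, had libraries 2 and 3 as its highest pair, against 25.2% of genes tested. The 7 neutrophil markers summed to 0.487 to 4.67 FPKM, highest in library 2, but only 1 of them reached the level tested. Most of the library 2 sum was S100a9, at 3.22 FPKM, and S100a8, at 1.10 FPKM. Csf3r and Mmp9 were highest in library 3, and Ly6g was listed at 0 in the 5 libraries. Adipocyte markers were highest in library 3 but summed to 245 FPKM in library 2 and 370 FPKM in library 4. The part of these cells in the member levels was not tested.

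**Figure D5:**
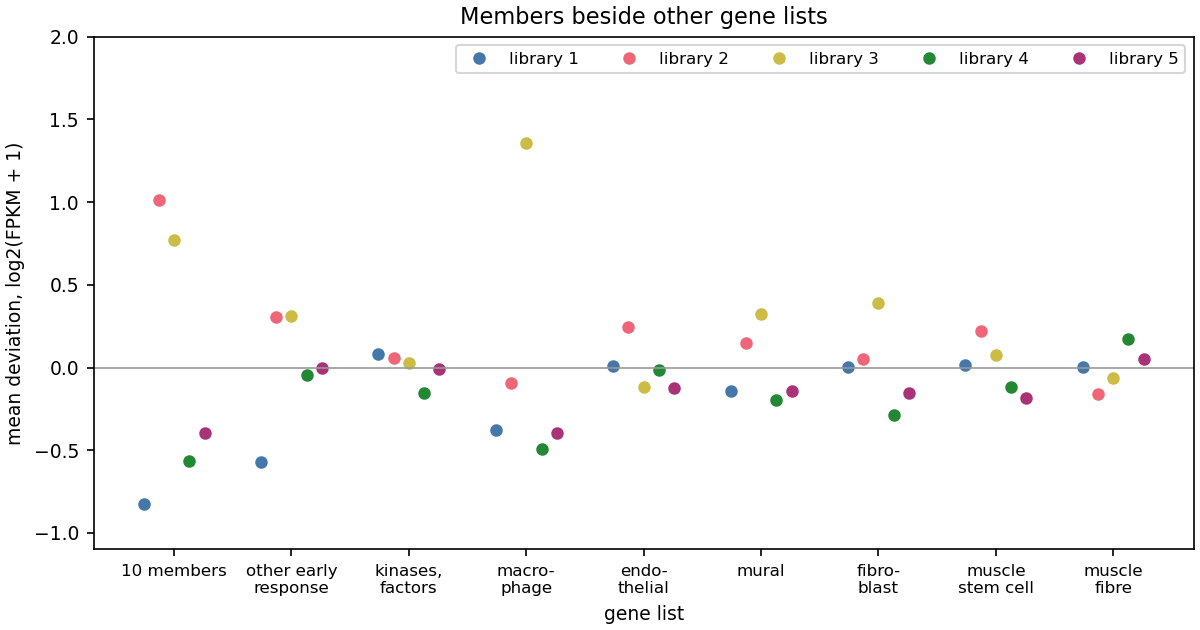
Mean deviation of log2(FPKM + 1) from the mean of each gene, per library, for the 10 members and for other gene lists. The members are highest in library 2, at 1.02, and lowest in library 1, at -0.83, while the kinase and factor list stays between -0.16 and 0.08 and the macrophage list reaches 1.36 in library 3.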

How the data were processed

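Gastrocnemius muscle of 5 samples was measured by poly-A RNA sequencing. Values are FPKM, as deposited by the authors in 1 table. Per the submitters' processing notes, STAR 2.5, TopHat, edgeR, DESeq2 and HTSeq 0.6.1 were used with the build mm10, in roles that the notes leave out. The strand setting, annotation release and handling of multi-mapping reads are not given in the sources consulted.

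Symbols, coordinates and exon overlaps came from the GENCODE M21 annotation of GRCm38, for 34490 of 35275 identifiers. The 10 members, the gene lists and the tests were chosen with earlier results of these data known. Each FPKM value is a whole number of equal steps, 1 per read, from which library totals and reads were recovered: the values of 20840 of 20840 genes above 0 (100%) came out whole within 0.001 of a read. The annotated exon length gave whole reads for 4544 of them, while the remaining genes needed a length found from the values. That length was the smallest that gave whole reads, so the reads of these genes can be understated. Such a search easily makes genes above 0 in few libraries whole. Among genes above 0 in the 5 libraries, 15694 of 15694 came out whole. The recovered reads summed to 99.4% to 99.5% of the library totals.

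The design allowed for a table of counts. The table holds FPKM, so limma 3.58.1 in R 4.3.3 was fitted with an intercept on log2(FPKM + 1), a scale that understates differences of low genes. The residual variance over the abundance trend was set one-sided against F with 4 and 3.93 degrees of freedom, with Benjamini-Hochberg adjustment over the 10710 genes whose mean reached 1 FPKM. Recovered reads were set against library totals by a chi-square test, adjusted likewise. Members were compared in pairs by the exact sign-flip test. Other steps used Python 3.11.15 with pandas 2.3.3, scipy 1.17.1, numpy 2.4.6 and, for figures, matplotlib 3.10.9.

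The genes named are the 10 members, the 15 nearest to their mean deviation, the related family genes, and from other lists the 4 with the highest mean and the 3 with the largest SD. Srf, Creb1, Ly6g and the genes of the closing observations outside this rule were named after their values were seen. Alternatives were other scalings, filters, pseudocounts, a robust prior and leaving out each library.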

Additional observations from a re-analysis of the deposited data

Results flagged for a closer look

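In 3 of 28 values examined (17 genes and 11 ratios between members), the highest library was further from its nearest neighbour than a Dixon test at 95% allows. Chance flags about 1 in 20 such groups. Nr4a3 had 6.66 FPKM in library 5, and 0.747 to 2.02 FPKM in the other 4. The ratio of Egr1 to Egr3 was 15.2 in library 1, and 3.33 to 4.68 in the other 4. Egr3 in library 1 rests on 13 reads at the gene length found, with a 95% interval of 0.213 to 0.685 FPKM. The counting error of that ratio is therefore wide, and the Dixon test does not include it. The ratio of Nr4a1 to Nr4a3 was 173 in library 2, and 23.8 to 64.1 in the other 4.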

How the results depend on the processing

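The count of genes that varied beyond the abundance trend by limma was 0 with a pseudocount of 0.1, median-of-ratios scaling, no filter, a filter at 10 FPKM and a robust prior, with 379 to 905 genes at an unadjusted p under 0.05. Leaving out one library gave 0 to 4 such genes. The 4 came without library 3 and were Egr1, Sln, Slc25a25 and Arrdc2. Genes that varied beyond counting error numbered 8326 to 9014 when one library was left out, against 9410 with all 5, and members 9 to 10, since Fosb fell under the filter without library 2. Pairs of members in 1 order numbered 31 to 33 when one library was left out and 30 with reads not divided by length. Members highest in the leading library numbered 6 to 8, and without library 2 the leading library was library 3. Without library 1, 4 or 5, libraries 2 and 3 were the highest pair for 8 members, an alternative chosen after seeing the data, as was the scaled count of 6 in the report. With a pseudocount of 0.1 the SD on the log2 scale was 1.56 for Fosb, 1.51 for Egr2 and 2.48 for Egr3, against 0.88, 0.89 and 1.71. The unadjusted calls of members and the likeness with that pseudocount were also recomputed after seeing the data. No paired analysis was possible because the study has 1 group. Depth limits Egr3, Fosb and Egr2 most, with 11 to 45 reads in libraries 1, 4 and 5.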

Other observations

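Of the 42 other early response genes tested, 14 were highest in library 4 or 5, where Fos, Egr1 and Egr3 were low, against 18.2% of all genes tested. Of these 14, 12 were lowest in library 1, against 10.2% of genes tested. Gadd45g, a growth arrest and stress gene, had 12.4, 41.5, 37.8, 76.1 and 79.3 FPKM in libraries 1 to 5, and so was highest in the 2 libraries where Egr1 was lowest. Klf10, a TGF-beta-induced zinc finger gene, had 5.06, 9.36, 11.3, 28.0 and 24.5 FPKM, and was also highest in libraries 4 and 5 and lowest in library 1. Cebpd, a bZIP factor induced by glucocorticoids and cytokines, had 6.51, 13.2, 14.7, 23.7 and 21.3 FPKM. Nfil3, a bZIP repressor linked to the circadian clock, had 2.91, 4.95, 7.07, 9.07 and 11.3 FPKM and, like Nr4a3, was highest in library 5. Per1, a clock gene that is also an early response gene, had 12.7, 28.9, 32.2, 29.2 and 38.1 FPKM. Gadd45b went against both patterns, with 22.6, 19.0, 8.91, 19.7 and 8.86 FPKM, highest in library 1. These genes were picked after their values were seen and no test was made of them as a group.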
